A study of Mus musculus with 12 samples.

Results

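The proteasome is the protease complex that destroys most short-lived, damaged and ubiquitin-tagged proteins of a cell. It was followed through the transcripts of 35 genes, out of 41325 in the deposited tables, that encode its constitutive subunits and its activators. The genes were picked by name, as subunits of the complex, with earlier results of these data known: 14 subunits of the 20S core particle, leaving out the immune-type catalytic subunits, 17 subunits of the 19S regulatory particle and 4 activators. All 35 were present in the tables and all 35 passed the filter on low counts in each comparison.

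The cells were IMG, a microglial line of immortalised mouse cells, wild type, of the C57Bl6/J strain and all of the same passage. Microglia are the macrophages that reside in the brain. Bulk RNA sequencing compared 3 groups of 4 libraries each, exposed for 8 h to a scramble control, to oAb or to fAb. These are 2 preparations of amyloid beta, a peptide found in the plaques of Alzheimer's disease. The design text attaches the word fibrillar to oAb and oligomeric to fAb, opposite to what the abbreviations would stand for, so the names oAb and fAb are kept without deciding which is which. Whether the 4 libraries of a group came from separate cultures is not stated, and the p-values therefore reflect only how far these libraries differ, which may be technical. As 1 immortalised line they stand for no other microglia.

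In the core particle, a pair of rings of alpha subunits (Psma genes) closes off a pair of rings of beta subunits (Psmb genes), of which Psmb5, Psmb6 and Psmb7 carry the active sites. The 19S particle caps the core: its base holds ATPases (Psmc genes) that unfold substrates and open the gate, and its lid removes ubiquitin. Activators of the Psme family can take the place of the 19S cap. In macrophage-lineage cells, inflammatory signals replace the constitutive catalytic subunits with the immune forms Psmb8, Psmb9 and Psmb10, and the transcription factor Nfe2l1 raises proteasome genes when proteolysis is impaired.

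The libraries held between 13638721 and 18124419 counts, and levels are given as CPM (counts scaled by normalised library size, on 1 scale across the 12 libraries) unless another unit is named. Of 13 microglia and macrophage markers, 12 reached a mean of 1 CPM, all but Tmem119. Their summed level was 3736 to 4605 CPM in scramble and 3390 to 3942 CPM in the treated libraries. The sum hides moves in both directions, picked here after the values were seen. Trem2 was at 216 to 401 CPM in scramble and 55.1 to 76.9 CPM in treated libraries. P2ry12 was at 3.77 to 7.86 and 0.437 to 1.27 CPM, while Adgre1 was at 181 to 215 and 358 to 420 CPM. Of 30 markers of neurons, astrocytes, oligodendrocytes, fibroblasts, endothelium and lymphocytes, 13 had no count in any library. The neuronal list summed to 1.01 to 3.67 CPM in scramble and 10.0 to 12.9 CPM in treated libraries. Nearly all of it was Map2, with Rbfox3, Snap25 and Stmn2 at 0. The oligodendrocyte list summed to 91.1 to 125 CPM in scramble and 43.5 to 51.6 CPM in treated libraries. Nearly all of it was Mbp, with Mog and Mobp at 0. The fibroblast list reached at most 0.105 CPM in scramble and 2.80 to 4.40 CPM in treated libraries, with Pdgfra at 0. Mitochondrially encoded transcripts took 4.18 to 4.94% of counts in scramble and 2.73 to 3.37% in treated libraries. The part of these differences in the proteasome values was not tested, and in bulk RNA fewer cells of a kind cannot be told apart from less RNA per cell.

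Of the controls, scramble library 3 was unlike the rest. Its ribosomal protein transcripts took 11.5% of counts, against 6.76 to 7.32% in the other controls, and its correlation with them over the log2 CPM of all tested genes was 0.944 to 0.965, where the lowest of any pair within oAb or fAb was 0.985. It was the highest control for 30 of the 35 proteasome genes and the lowest for 2, where 42.1% of the 10666 genes of at least 1 CPM were highest in it. The 35 genes stood in it a median of 0.58 log2 units above the mean of the other controls, from -0.65 (Psme4) to 0.92 (Psme2). Over the 35 genes the median coefficient of variation was 22.4% in scramble, 4.70% in scramble without that library, 5.10% in oAb and 3.77% in fAb. The main counts, and the values of most members described, are therefore also given without it.

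Most proteasome transcripts were higher after either preparation than after scramble, and none fell past the threshold. In oAb against scramble 23 of 35 rose and 0 fell at an adjusted p under 0.05 in edgeR's quasi-likelihood test, where 25.2% of all tested genes rose and 27% fell. The median difference of the 35 genes was 0.49 on the log2 scale, against -0.07 over all genes tested, and all 35 values were above 0. In fAb against scramble 22 rose and 0 fell, where 27.6% of tested genes rose and 28.8% fell. The median was 0.52 against -0.04, and 33 of 35 values were above 0. Both comparisons share the same 4 control libraries, so they are not independent of each other.

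Without scramble library 3 all 35 genes rose in both comparisons, where 31.4% of tested genes rose and 32.9% fell in oAb, and 34.2% rose and 33.8% fell in fAb. The medians were then 0.58 and 0.66. With all libraries, every oAb library lay above every scramble library for 19 of 35 genes (26.4% of all genes), and every fAb library did so for 18 (27.7% of all genes). Leaving out scramble library 3 brought this to 35 of 35 in both, where 31.8% and 32.3% of all genes did so. That count depends on the scale of the levels. On the authors' TPM, compared in the same way after the data were seen, 22 genes in oAb and 23 in fAb lay above all controls (18.3% and 20.8% of all genes). Without scramble library 3 these were 26 and 27 (19% and 21.5% of all genes), and Psma1, Psmb1, Psmb3, Psmc3, Psmc6, Psmd3, Psmd4 and Psmd13 overlapped the remaining controls in both comparisons, with Psmd2 also in oAb. The 12 genes that rose in neither comparison were higher in scramble library 3 than in the mean of the other controls by a median of 0.71 log2 units, and the 22 that rose in both by 0.48. Both sets were formed by fits that include this library. A contrast in this direction is therefore partly built in, and it is a description only. As a share of all counts, the 35 genes took 0.557 to 0.575% in scramble libraries 1, 2 and 4, 0.706% in scramble library 3, and 0.713 to 0.745% in the 8 treated libraries.

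**Figure D1:**
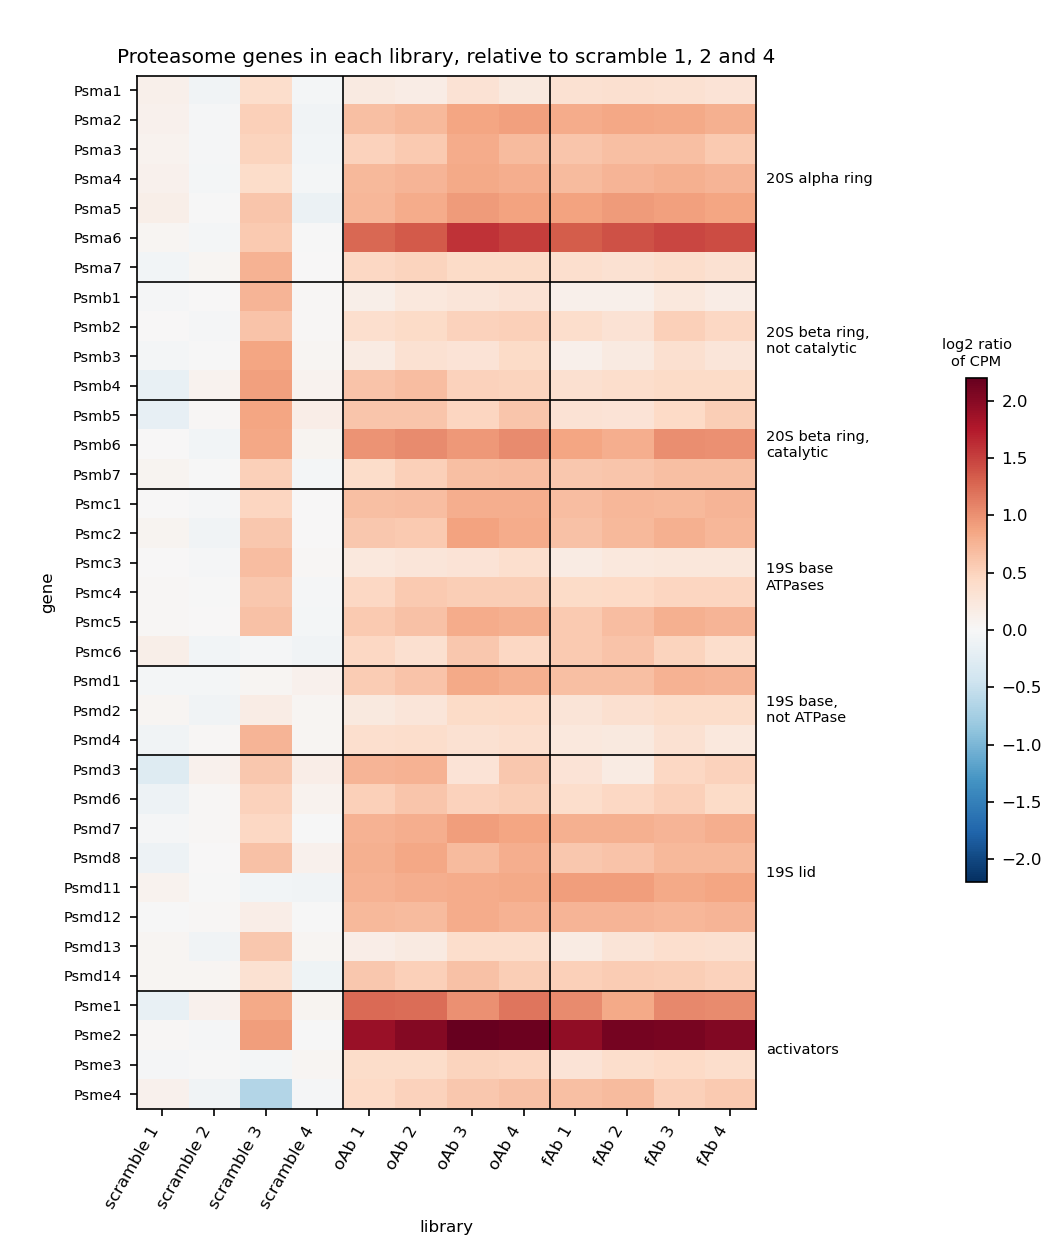
Normalised CPM of each of the 35 genes (rows, by role) in each of the 12 libraries (columns), as a log2 ratio to the mean of scramble libraries 1, 2 and 4. The 8 treated columns are red in every row, most for Psme2 and Psma6, and scramble library 3 is also red in most rows but blue for Psme4.

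The count of rises was lower under another scaling of the libraries. Upper quartile scaling moved the median of all tested genes to -0.24 in oAb and -0.23 in fAb and left 17 and 16 of the 35 genes past the threshold, where 19.3% and 20.5% of genes rose. None of the 35 fell, where 36.4% and 39.4% of genes did, and 29 values in oAb and 27 in fAb were above 0. All 4 activators passed in both comparisons under that scaling, but only 1 of the 3 catalytic subunits did in oAb and 0 in fAb. The members' medians were then 0.31 and 0.33. With that scaling and without scramble library 3, a combination added after the data were seen, 29 and 30 genes rose, where 23.9% and 25.2% of all genes did.

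Most of the rises were modest. When the test required a change of more than 1.5-fold, 3 of 35 genes passed in oAb (Psme2, Psma6 and Psmd11), where 12% of all genes rose, and 5 in fAb (the same 3, Psmd1 and Psmd12), where 12.9% did. These genes were named after their values were seen. The members' share was thus below that of all genes in oAb and near it in fAb.

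The libraries also split into 2 sets by whether reads went to Timm23 or to its near copy Gm10273, a split that no label names as a batch and that overlaps with the groups. Scramble 2, 3 and 4 and oAb 1 and 2 formed the Timm23 set, and the other 7 libraries, all of fAb among them, the Gm10273 set. Within the Timm23 set 11 of 35 genes rose in oAb, where 17.6% of all genes did. The Gm10273 set holds scramble 1 as its lone control, which is assumed to vary like the other libraries. Against that 1 library 35 genes passed in oAb (32.5% of all genes) and 35 in fAb (29.9%), counts that say nothing of how controls vary within the set. With the set as a term in the fit, 23 rose in oAb (25.3% of all genes) and 17 in fAb (18.2%).

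The activators held the largest single difference, and all 4 rose in both comparisons. Psme1 and Psme2 encode the subunits of PA28 (the 11S cap), an interferon-inducible activator that opens the core to peptides. They lie close together on chromosome 14, Psme1 at chr14:55578123-55581529 on the plus strand and Psme2 at chr14:55587441-55591113 on the minus strand (mm10). Psme2 stood at 82.5, 80.2, 154 and 81.0 CPM in scramble libraries 1 to 4. It read 303, 328, 371 and 361 CPM in the oAb libraries and 313, 348, 347 and 333 CPM in the fAb libraries. Every treated library was above every control, scramble library 3 included. The fitted rise was 3.44-fold in oAb (log2 1.78 ± 0.22 SE, edgeR adjusted p = 0.000114) and 3.46-fold in fAb (1.79 ± 0.22, adjusted p = 0.000113). Without scramble library 3 it was 4.20-fold and 4.25-fold. Of the 50-base words of Psme2, 28.3% occur in other genes, mainly its near copy Psme2b, so some reads could have been assigned to either.

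Psme1, the partner of Psme2, read 79.8, 95.3, 159.2 and 92.9 CPM in scramble, 212, 210.5, 179 and 203 CPM in oAb, and 183, 158.6, 185 and 183 CPM in fAb. The lowest fAb library overlapped scramble library 3, and no other control reached a treated library. It rose 1.89-fold in oAb (adjusted p = 0.00388) and 1.70-fold in fAb (adjusted p = 0.0101). Without scramble library 3 the rises were 2.26-fold and 2.05-fold.

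Psme3, which forms the nuclear PA28 gamma ring, had the smallest coefficient of variation of the 35 genes over the 4 controls (2.39%). Its values were 205, 207, 203 and 215 CPM in scramble, 276, 277, 293 and 290.2 CPM in oAb, and 259, 272, 284 and 275 CPM in fAb. All treated libraries were above all controls. The rises were 1.37-fold (adjusted p = 0.000709) and 1.34-fold (adjusted p = 0.000743), and 1.36-fold and 1.34-fold without scramble library 3. Psme4 encodes PA200, a large single-chain activator known for histone degradation. It read 93.8, 82.8, 55.6 and 85.4 CPM in scramble, with library 3 the lowest, then 119, 124, 132 and 136 CPM in oAb and 138, 141, 125 and 129 CPM in fAb. The rises were 1.61-fold (adjusted p = 0.00413) and 1.73-fold (adjusted p = 0.00163), and 1.47-fold and 1.57-fold without scramble library 3. With Psme3, Psmd11 and Psmc6 it was 1 of the 4 genes whose difference was smaller without that library.

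**Figure D2:**
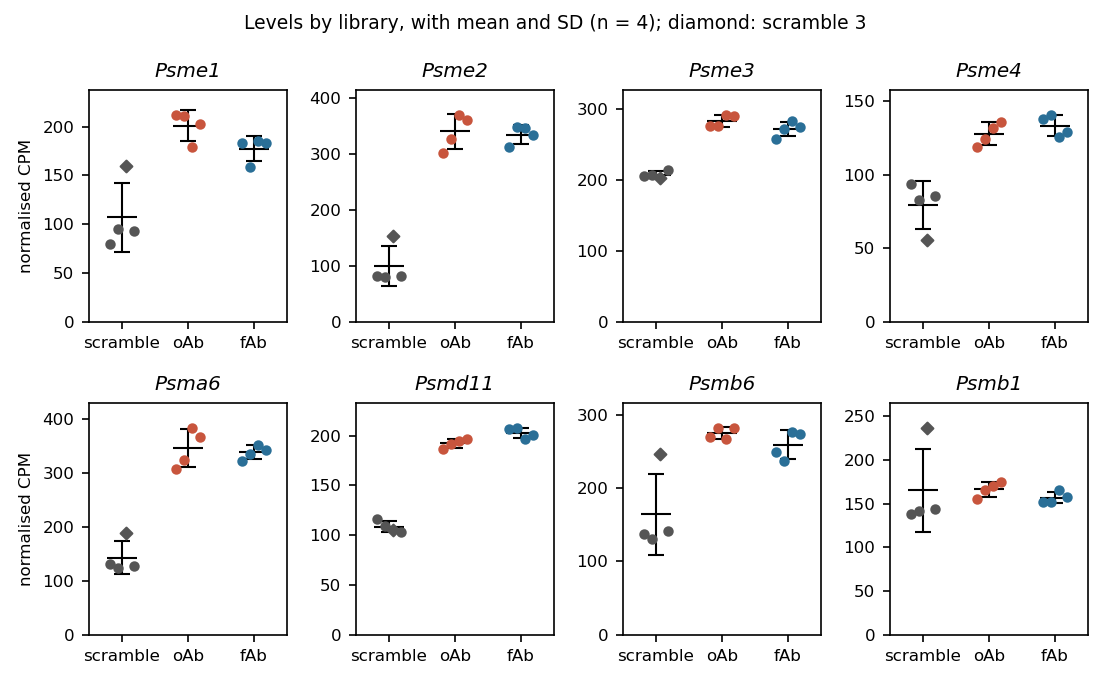
Normalised CPM of 8 genes in each library, by group, with the mean and SD of 4 libraries; the diamond marks scramble library 3. Treated libraries lie above all controls for Psme2, Psme3, Psme4, Psma6 and Psmd11, whereas for Psmb1 the diamond, at 237 CPM, is above every treated library.

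In the alpha ring, which forms the gate of the core, 5 of 7 genes rose in each comparison. Psma6 (ENSMUSG00000021024, chr12:55384222-55418454, plus strand, mm10) moved most. Its values were 132, 124, 189 and 127 CPM in scramble, 307, 325, 384 and 366 CPM in oAb, and 322, 336, 352 and 343 CPM in fAb. No control reached the lowest treated library, and the rise was 2.43-fold in both comparisons (log2 1.28 ± 0.15 and 1.28 ± 0.14, adjusted p = 9.35e-05 and 6.37e-05), or 2.72-fold and 2.73-fold without scramble library 3. Psma2, Psma3, Psma4 and Psma5 rose too, by 0.52 to 0.66 log2 units in oAb and 0.53 to 0.75 in fAb. Of the words of Psma5, 49.1% also occur in other genes, mainly Gm8394 and Gm12989, so its count is uncertain.

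Psma1 and Psma7 did not pass the threshold with all libraries. Psma1 read 169, 149, 204 and 152 CPM in scramble, 179, 175, 194 and 182 CPM in oAb, and 198, 199, 197 and 192 CPM in fAb, a difference of 0.12 ± 0.11 and 0.26 ± 0.11 (adjusted p = 0.389 and 0.0696). Psma7 read 147, 157, 259 and 154 CPM in scramble, 210.2, 215, 205 and 205 CPM in oAb, and 198, 194, 199 and 193 CPM in fAb (adjusted p = 0.314 and 0.458). In both genes scramble library 3 was above every treated library and the other controls were below all of them. Without it Psma7 rose by 0.45 ± 0.06 and 0.40 ± 0.05 log2 units and Psma1 by 0.23 ± 0.07 and 0.37 ± 0.05. The oAb rise of Psma1 depended on the scale. With upper quartile scaling and no scramble library 3 it was 0.06 and did not pass (edgeR adjusted p = 0.448). On the authors' TPM Psma1 was at 159 to 192 in scramble libraries 1, 2 and 4 and at 157 to 172 in oAb.

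None of the 4 structural beta subunits passed the threshold in either comparison with all libraries, and all 4 rose in both without scramble library 3. When upper quartile scaling was used as well, Psmb1 and Psmb3 passed in neither comparison. Psmb1 had the lowest difference of all 35 genes with all libraries, and Psmb3 the next (0.04 ± 0.20 and -0.01 ± 0.20). It read 139, 142, 237 and 144 CPM in scramble, 155, 166, 170.1 and 175 CPM in oAb, and 152, 152, 165 and 158 CPM in fAb. The fitted differences of Psmb1 were 0.02 ± 0.17 and -0.04 ± 0.18 with all libraries and 0.24 ± 0.06 and 0.19 ± 0.05 without scramble library 3 (adjusted p = 0.00615 and 0.00666). On the authors' TPM Psmb1 was at 96.995 to 101.1 in scramble libraries 1, 2 and 4, at 92.9 to 100.3 in oAb and at 93.0 to 97.9 in fAb, so on that scale no rise was seen. Psmb4, whose product helps pair the rings, read 139.5, 164, 293 and 165 CPM in scramble, 239.9, 251, 221 and 219 CPM in oAb, and 199.7, 204, 208 and 209 CPM in fAb. Psmb2 read 109, 107, 169 and 111 CPM in scramble, 141, 146, 155 and 156 CPM in oAb, and 142, 136, 157 and 149 CPM in fAb. In both genes 3 controls were below all treated libraries and scramble library 3 above them. Without it their rises were 1.49-fold (oAb) and 1.36-fold (fAb) for Psmb4 and 1.38-fold in each for Psmb2.

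Of the 3 catalytic subunits, 2 passed the threshold in each comparison with all libraries, and their differences were not tested against each other. Psmb6, the caspase-like site, read 137, 131, 246 and 142 CPM in scramble, 269.7, 282, 266 and 282 CPM in oAb, and 249, 237, 277 and 274 CPM in fAb. Only 1 fAb library was below scramble library 3, and no other control came near the treated range. It rose 1.68-fold in oAb (adjusted p = 0.00957) and 1.62-fold in fAb (adjusted p = 0.0155), and 2.01-fold and 1.95-fold without scramble library 3. Psmb7, the trypsin-like site, read 124, 118, 171 and 115 CPM in scramble, 158, 172, 189.6 and 190.4 CPM in oAb, and 179.7, 181, 188 and 189.8 CPM in fAb. It rose 1.34-fold (adjusted p = 0.0278) and 1.43-fold (adjusted p = 0.00857), with scramble library 3 above 1 oAb library and below the other treated ones. Without that library the rises were 1.49-fold and 1.59-fold. Psmb5, the chymotrypsin-like site and the main target of proteasome inhibitor drugs, read 101, 116, 208 and 127 CPM in scramble, 175, 175, 159.6 and 174 CPM in oAb, and 143, 140.4, 155 and 166 CPM in fAb. Its differences of 0.31 ± 0.20 and 0.17 ± 0.21 did not pass the threshold (adjusted p = 0.225 and 0.527), and without scramble library 3 they were 0.58 ± 0.08 and 0.44 ± 0.09 (adjusted p = 0.00011 and 0.00156). Of the 50-base words of Psmb5, 54.1% occur in other genes, mainly Gm3375, so its count is uncertain.

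In the 19S base, 4 of 6 ATPase genes rose in each comparison, all but Psmc3 and Psmc4. Psmc1, a subunit that opens the gate of the core, had the highest rise among them. It read 159.9, 156, 220.2 and 159 CPM in scramble, 251, 253, 275 and 274 CPM in oAb, and 253, 264, 261 and 266 CPM in fAb. All treated libraries were above all controls, and the rises were 1.52-fold (adjusted p = 0.00277) and 1.54-fold (adjusted p = 0.00216), or 1.67-fold and 1.70-fold without scramble library 3. Psmc3 was the lowest, with 141, 138, 225 and 142 CPM in scramble, 166, 169, 173 and 181 CPM in oAb, and 159.6, 165, 166 and 167 CPM in fAb. Its difference was 0.10 ± 0.16 and 0.06 ± 0.16 with all libraries (adjusted p = 0.63 and 0.754) and 0.30 ± 0.06 and 0.27 ± 0.05 without scramble library 3 (adjusted p = 0.00108 and 0.000475). Upper quartile scaling without that library gave 0.14 in oAb, which did not pass (edgeR adjusted p = 0.0582). Psmc2, Psmc5 and Psmc6 rose by 0.47 to 0.56 log2 units in oAb and 0.54 to 0.59 in fAb. Psmc4 had values of 0.36 ± 0.14 and 0.32 ± 0.14 (adjusted p = 0.0588 and 0.0879), and rose 1.44-fold and 1.41-fold without scramble library 3.

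Of the other 3 base subunits, 2 rose in each comparison, Psmd1 and the second scaffold, Psmd2 (1.23-fold and 1.28-fold, adjusted p = 0.0259 and 0.0059). Psmd1, a scaffold to which the ubiquitin receptor Adrm1 binds, read 214, 213, 227 and 234 CPM in scramble, 323, 339, 394 and 381 CPM in oAb, and 348, 349, 374 and 371 CPM in fAb. Here scramble library 3 lay among the other controls, and the rises were 1.62-fold (adjusted p = 0.00021) and 1.67-fold (adjusted p = 3.69e-05). Psmd4, a ubiquitin receptor, read 128, 137, 226 and 138 CPM in scramble, 173, 175, 169 and 172 CPM in oAb, and 158, 157, 169 and 158 CPM in fAb. It did not pass the threshold with all libraries (adjusted p = 0.53 and 0.774) and rose 1.29-fold and 1.23-fold without scramble library 3.

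In the lid, 6 of 8 genes rose in oAb and 5 of 8 in fAb. Psmd11, a subunit that clamps the lid to the core and whose level is known to limit 26S assembly, lies at chr11:80428615-80473248 on the plus strand. It read 116, 109, 105 and 104 CPM in scramble, 187, 191, 194 and 196 CPM in oAb, and 206, 208, 196 and 200.3 CPM in fAb. The treated libraries were far above the controls, and scramble library 3 lay within the other controls. The rises were 1.77-fold (adjusted p = 1.73e-05) and 1.92-fold (adjusted p = 5.78e-06), with the smallest adjusted p of the 35 genes in both comparisons. Psmd13, a structural subunit, read 107, 98.6, 156 and 107 CPM in scramble, 116, 119, 135 and 137 CPM in oAb, and 119, 127, 134 and 134 CPM in fAb. Its differences of 0.12 ± 0.15 and 0.17 ± 0.15 did not pass the threshold (adjusted p = 0.545 and 0.36), and without scramble library 3 it rose by 0.28 ± 0.08 and 0.34 ± 0.06 (adjusted p = 0.00826 and 0.000619). Under upper quartile scaling without that library its oAb difference was 0.12 and did not pass (edgeR adjusted p = 0.183). Psmd14, the deubiquitinase of the lid, its partner Psmd7, Psmd12 and Psmd8 rose in both comparisons, by 0.49 to 0.71 log2 units in oAb and 0.48 to 0.74 in fAb. Psmd6 rose in oAb (adjusted p = 0.0269) and had an adjusted p of 0.0548 in fAb, while its difference between fAb and oAb did not pass (adjusted p = 0.417). Psmd3 read 120.5, 157, 221 and 161 CPM in scramble, 243.7, 247, 181 and 219.7 CPM in oAb, and 180.4, 165, 201 and 208 CPM in fAb. It did not pass in either comparison (adjusted p = 0.0688 and 0.294), and rose 1.53-fold and 1.33-fold without scramble library 3 (adjusted p = 0.0031 and 0.0119).

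**Figure D3:**
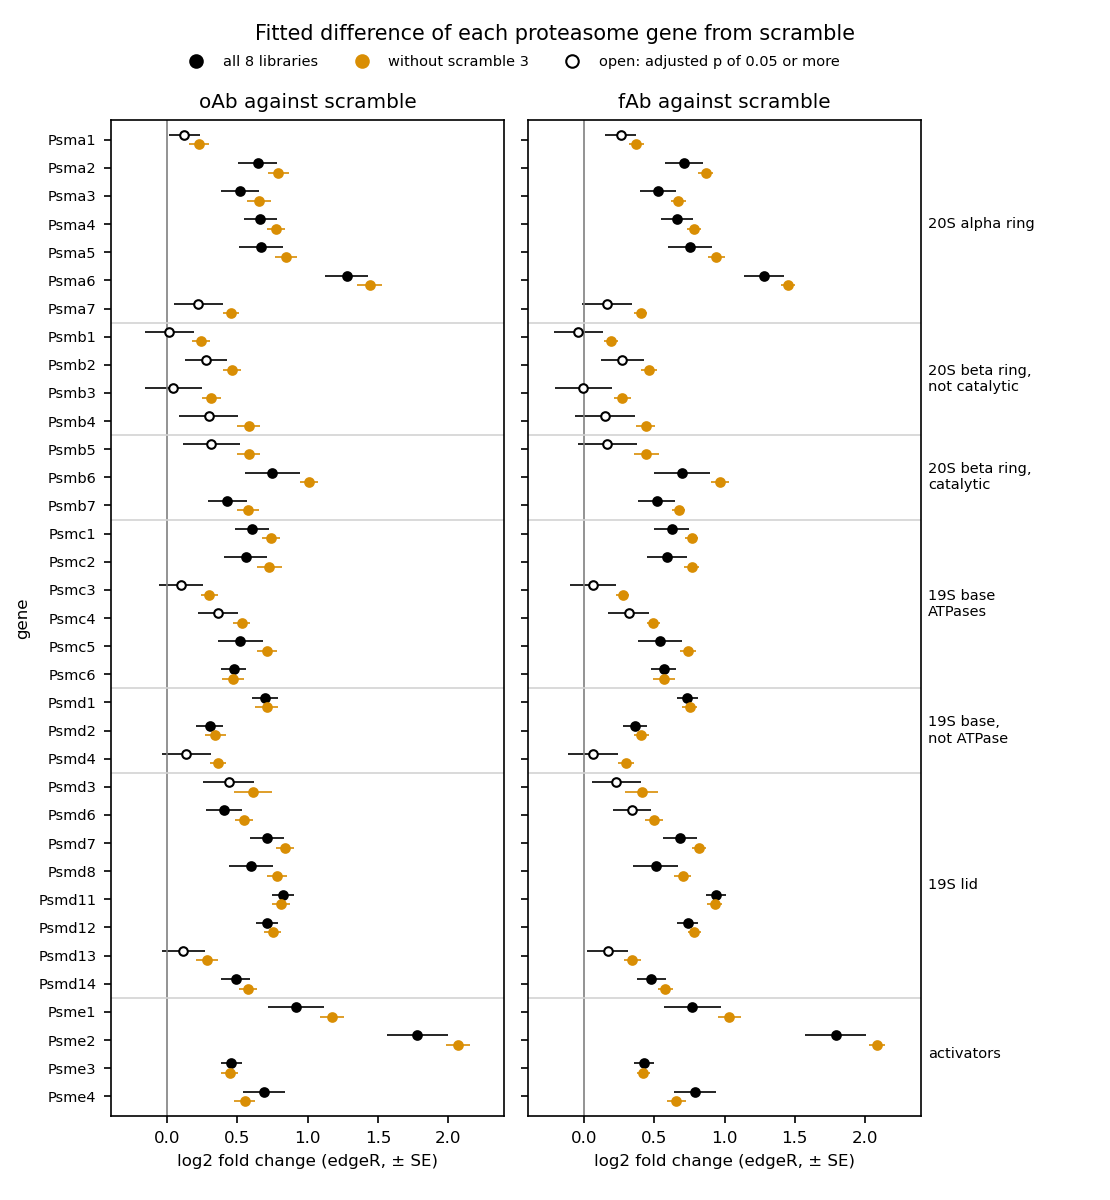
Fitted log2 fold change ± SE of each of the 35 genes in oAb and in fAb against scramble, with all 8 libraries (black) and without scramble library 3 (orange); open symbols did not pass an adjusted p of 0.05. The open symbols, 12 in oAb and 13 in fAb, all turn into filled orange ones without scramble library 3, and orange points lie to the right of black ones in all rows but Psmc6, Psmd11, Psme3 and Psme4.

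Between fAb and oAb no member differed past the threshold, 0 of 35, where 0% of 10878 tested genes did so with edgeR. At an unadjusted p under 0.05 there were 7 of 35 members (Psme1, Psmd8, Psma1, Psmd3, Psmb4, Psmd4 and Psmb5), where 12.8% of all tested genes were. DESeq2 and limma voom also found 0 members past the threshold. Over all 10878 genes DESeq2 found 5 higher and 9 lower in fAb, and limma voom 0. The median difference was -0.03 log2 units, from -0.24 (Psmd3) to 0.11 (Psma1). Psma7, Psmb4 and Psmd4 had every fAb library below every oAb library, 3 of 35 where 3.25% of genes did so, and 0 of 35 had them above, where 3.09% did. Their adjusted p-values between fAb and oAb were 0.399, 0.375 and 0.376.

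Levels of different genes can be compared only on a scale per length, for which the authors' TPM were used. In scramble the core genes spanned 4.44-fold in mean TPM, from Psmb1 at 106.0 to Psma5 at 470.4. They spanned 7.71-fold in oAb and 8.02-fold in fAb, with Psmb1 again lowest (96.5 and 96.2 TPM) and Psma6 highest (744 and 772 TPM). The 19S genes spanned 6.57-fold in scramble, from Psmd11 at 51.8 TPM to Psmd2, a scaffold of the base, at 340.0 TPM, and 4.61-fold in oAb and 4.43-fold in fAb, with the same genes at both ends. The summed TPM of the 20S genes over that of the 19S genes was 1.18 to 1.20 in scramble libraries 1, 2 and 4, 1.38 in scramble library 3, and 1.29 to 1.33 in the treated libraries. The 4 activators summed to 531 to 571 TPM in scramble and 1031 to 1116 TPM in the treated libraries. These ratios and sums have no test.

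The constitutive catalytic subunits were next set beside the immune forms that can replace them. All 3 immune core genes rose in both comparisons, where 25.2% and 27.6% of all tested genes rose in oAb and fAb. Psmb8 read 32.8, 34.4, 65.6 and 40.6 CPM in scramble, 178, 187, 179 and 186 CPM in oAb, and 154, 156, 172 and 165 CPM in fAb, rises of 4.22-fold and 3.83-fold (adjusted p = 3.07e-05 and 6.02e-05). Psmb9 rose 4.71-fold and 4.30-fold, from 8.14 to 13.9 CPM in scramble to 35.9 to 49.0 CPM in the treated libraries. Psmb10 rose 4.35-fold and 3.49-fold, from 28.2 to 72.7 CPM in scramble to 117 to 211 CPM in the treated libraries. In each of the 3 every treated library was above every control, where 26.4% of all genes were so in oAb and 27.7% in fAb. Without scramble library 3 the rises were 5.09-fold and 4.64-fold for Psmb8, 5.45-fold and 5.00-fold for Psmb9, and 5.57-fold and 4.49-fold for Psmb10.

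On the TPM scale Psmb5 held 90.6% ± 0.34 (SD, n = 4) of the sum of Psmb5 and Psmb8 in scramble, 74.0% ± 0.77 in oAb and 73.9% ± 0.96 in fAb. Psmb6 held 96.9 to 97.2% of its pair with Psmb9 in scramble, 92.1% ± 0.31 in oAb and 92.5% ± 0.35 in fAb. Psmb7 held 61.2% ± 6.1 of its pair with Psmb10 in scramble, 31.9% ± 4.0 in oAb and 38.5% ± 3.9 in fAb. In none of the 3 pairs did a treated library overlap a control, and scramble library 3 lay inside the control range for Psmb5 and at the low end, 54.0%, for Psmb7. The shares are given as a description, with no test.

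**Figure D4:**
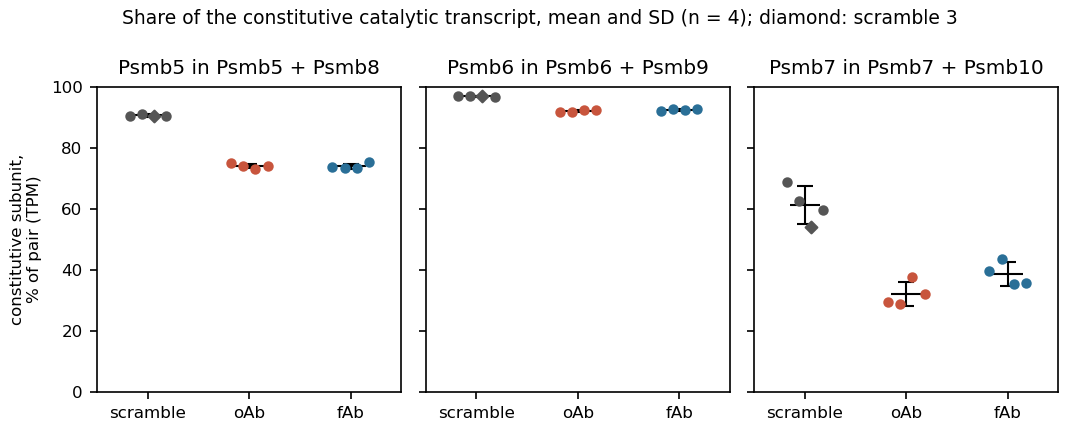
Share of the constitutive gene in the summed TPM of each catalytic pair (percent, from 0 to 100), by library, with the mean and SD of 4 libraries; the diamond is scramble library 3. The constitutive gene remains the larger part for Psmb5 and Psmb6 in all libraries, and falls below 50% for Psmb7 in all 8 treated libraries.

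The other genes of the pathway were counted list by list, and those named below, other than the immune subunits, Pomp, Nfe2l1 and genes that rose at least 2-fold, were named after their values were seen. Over all tested genes 25.2% rose and 27% fell in oAb, and 27.6% rose and 28.8% fell in fAb. The shares of these short lists were not tested against those. Of 5 chaperones of core assembly, 0 rose and 1 fell in each comparison. The one that fell was Psmg2, at 28.6 to 42.2 CPM in scramble and 19.96 to 23.7 CPM in the treated libraries. Pomp, the maturation factor of the core, read 95.9, 93.7, 171 and 95.4 CPM in scramble, 145, 149.8, 169 and 167 CPM in oAb, and 148, 162, 162 and 154 CPM in fAb. It did not pass the threshold with all libraries (adjusted p = 0.0714 and 0.0605) and rose 1.66-fold and 1.70-fold without scramble library 3. Of 3 chaperones of 19S assembly, Psmd10 and Psmd5 rose in each comparison. Psmd10 was the higher, at 24.8 to 34.1 CPM in scramble and 65.9 to 82.5 CPM in the treated libraries, rises of 2.63-fold and 2.70-fold (adjusted p = 1.62e-05 and 8.91e-06), or 2.83-fold and 2.92-fold without scramble library 3. The other ubiquitin receptor of the 19S particle, Adrm1, and its small subunit Sem1 did not pass the threshold.

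Of 4 genes that control proteasome gene transcription, Nfe2l1 and Nfe2l2 rose in each comparison. Ngly1, the glycosidase that helps to activate the Nfe2l1 protein, fell in oAb (adjusted p = 0.0145), with an adjusted p of 0.0864 in fAb. Nfe2l1 read 138, 137, 121 and 147 CPM in scramble, 289.9, 294, 277 and 298 CPM in oAb, and 278, 265, 293 and 293 CPM in fAb. Scramble library 3 was its lowest control, and Nfe2l1 rose 2.13-fold in both comparisons (log2 1.09 ± 0.09 and 1.09 ± 0.08, adjusted p = 5.85e-06 and 4.88e-06), and 2.06-fold and 2.07-fold without that library. Nfe2l2, the related regulator of antioxidant genes, rose 1.20-fold and 1.22-fold (adjusted p = 0.0194 and 0.00768) and did not pass under upper quartile scaling. Of 9 inhibitors, adaptors and associated enzymes, 6 rose in oAb and 8 in fAb and none fell. Of all tested genes 25.2% and 27.6% rose, and 27% and 28.8% fell. Zfand5, a zinc finger protein that stimulates the 26S proteasome, rose 2.76-fold and 2.89-fold, from 52.4 to 68.2 CPM in scramble to 166 to 182 CPM in the treated libraries, and 2.62-fold and 2.75-fold without scramble library 3.

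Of 6 ubiquitin shuttles tested, Sqstm1, Rad23b and Ubqln1 rose in each comparison, Ubqln4 fell in each, and Ubqln2 fell in fAb. For this list and the next, 25.2% and 27.6% of all tested genes rose in oAb and fAb, and 27% and 28.8% fell. Sqstm1, the autophagy receptor also called p62, was at 239.7 to 428 CPM in scramble, 887 to 991 CPM in oAb and 764 to 870.1 CPM in fAb, rises of 2.87-fold and 2.51-fold (adjusted p = 5.15e-05 and 0.000145), or 3.19-fold and 2.81-fold without scramble library 3. Uba6, a ubiquitin-activating enzyme, rose 2.04-fold and 2.11-fold (adjusted p = 0.0163 and 0.0105), and 1.71-fold and 1.77-fold without scramble library 3. That library read 22.7 CPM, against 56.7 to 69.1 CPM in the other controls. Of 9 genes for the VCP unfoldase and its cofactors, 6 rose in each comparison, Vcp itself among them, and Ubxn1 and Ubxn6 fell. Without scramble library 3 the additions in these lists included rises of Pomp in both comparisons, of Adrm1 and Uchl5 in oAb and of Faf1 in fAb, and falls of Ddi2 and Ubqln2 in oAb and of Ngly1 in fAb. Upper quartile scaling took Nfe2l2 and Ufd1, among others, out of the rises in both comparisons and added falls, among them Psma8 in both. No gene named here differed between fAb and oAb past the threshold.

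The 35 genes lie on 14 chromosomes, and their promoters were searched for shared motifs. RefSeq windows (build GRCm38.p6, 250 bases before to 50 after a start) were matched by symbol for 29 of the 35. The letters TGACNNNGC, the core of the antioxidant response element that Nfe2l1 and Nfe2l2 recognise, were in the windows of 5 of 29 genes (17.2%), against 13.99% of 27025 genes. The letters GAAANNGAA, as in interferon response elements, were in 5 of 29 (17.2%), against 9.76% of genes. The box CCAAT was in 11 of 29 (37.9%), against 41.1% of genes. Both strands were searched, a gene counted once if any of its windows matched, and a match is a description and not a site. The matches to the first motif are shown because the transcripts of both factors rose, with the match in capitals and up to 10 bases on each side, 5′ to 3′ on the strand of the gene.
Psmb5 (chr14:54618024-54618052, minus strand): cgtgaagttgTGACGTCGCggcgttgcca
Psmb6 (chr11:70525338-70525366, plus strand): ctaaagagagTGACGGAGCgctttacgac
Psmc6 (chr14:45329587-45329615, plus strand): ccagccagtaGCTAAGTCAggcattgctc
Psmd12 (chr11:107479278-107479299, plus strand): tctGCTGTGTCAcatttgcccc
Psme4 (chr11:30771758-30771786, plus strand): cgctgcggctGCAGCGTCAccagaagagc

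They fall in 2 catalytic subunits (Psmb5 and Psmb6), an ATPase, a lid subunit and the activator Psme4. Of these 5 genes all but Psmb5 rose in both comparisons with all libraries, where 22 of all 35 members did. Whether the motif has a part in the rises was not tested. In Psmc6, Psmd12 and Psme4 the match reads on the opposite strand.

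The matches to the second motif are shown because Psme1 is among them, printed in the same way.
Psmb3 (chr11:97703262-97703290, plus strand): acagtgacttTTCACTTTCcgctttccat
Psmb4 (chr3:94886943-94886971, minus strand): aaaggaccacTTCCGTTTCcggtgacgct
Psmc2 (chr5:21786729-21786757, plus strand): gtggggaagaGAAAGGGAAgacaccagcg
Psmd4 (chr3:95042675-95042703, minus strand): taaccaacctTTCCATTTCtgtggcgcct
Psme1 (chr14:55578494-55578522, plus strand): gagctgtgctTTCGCTTTCccttcccgct

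Of these 5 genes, Psmc2 and Psme1 rose in both comparisons with all libraries, where 22 of all 35 members did, and Psmb3, Psmb4 and Psmd4 did not. The match in Psme1 lies after the start, and only that of Psmc2 reads on the strand of the gene.

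The core gene and the activator with the largest differences held neither of these 2 motifs. Their promoters are shown from 250 to 21 bases before the outermost start, with any CCAAT box, on either strand, in capitals.
Psma6 (chr12:55383972-55384201, plus strand): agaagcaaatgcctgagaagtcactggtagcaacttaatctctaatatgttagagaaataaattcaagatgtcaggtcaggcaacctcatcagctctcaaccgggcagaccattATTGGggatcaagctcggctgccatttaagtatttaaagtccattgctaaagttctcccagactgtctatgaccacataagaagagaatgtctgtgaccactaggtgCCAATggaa
Psme2 (chr14:55591122-55591351, minus strand): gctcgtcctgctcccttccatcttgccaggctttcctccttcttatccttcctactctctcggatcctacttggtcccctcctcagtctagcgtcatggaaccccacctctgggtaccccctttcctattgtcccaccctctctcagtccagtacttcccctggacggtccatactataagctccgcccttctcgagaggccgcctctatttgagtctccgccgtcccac

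Psma6 holds 2 CCAAT boxes in this stretch, and Psme2 holds 0. No match says only that these letters are not in the window.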

How the data were processed

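RNA from 12 samples of IMG cells was sequenced from stranded mRNA libraries, per the labels' protocols. The authors deposited whole-number counts of trimmed reads for each gene, per the file headers, along with TPM that the authors had scaled by gene length and depth. Submitters' processing notes name the build mm10. Aligner, counter and strand setting: not given in the sources used here. Other columns of the deposited tables were not used.

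Counts were tested in edgeR 4.0.16 (R 4.3.3) on the 8 libraries of each comparison, over every gene passing filterByExpr (minimum count 10), with TMM scaling, the robust quasi-likelihood F test, two-sided, and Benjamini-Hochberg adjustment with a threshold of 0.05. The test was checked on simulated counts. Precision rests on totals between 13638721 and 18124419 counts. TPM served for comparing genes and for a check of overlaps.

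Samples were grouped by title. The members, the lists and the rules were chosen with earlier results of these data known. Values in every library are printed for the catalytic subunits, the activators and the highest and lowest gene of each other role, and for others a result turns on. Pathway genes are named if they are immune core subunits, Pomp or Nfe2l1, or changed at least 2-fold past the threshold in both comparisons, and others were named after their values were seen. GENCODE M21 gave regions and overlaps. On the same strand 2 members overlap a neighbour and on the other strand 8 do, and in 3 members 20% or more of 50-base words recur elsewhere. No 2 libraries of the same group were duplicates, and pairs from different groups were not checked. Alternatives were DESeq2 1.42.0 and its size factors, limma 3.58.1 voom, upper quartile scaling, other filters and thresholds, all 12 libraries in a fit, a replicate block, library sets, copies added to their genes, and leaving out each library. Upper quartile scaling together with leaving out scramble library 3, and the overlap of groups on TPM, were added after seeing the data. Counts for 1 pathway list are not reported here.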

Additional observations from a re-analysis of the deposited data

Results flagged for a closer look

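Within groups of 4 libraries, a library was set apart where its gap to the nearest other exceeded 0.829 of the group's range. Over 45 genes (the 35 members and 10 named pathway genes) in 3 groups this happened in 23 of 135 groups, and chance alone does so in about 1 in 20. In 19 of the 23 the library was scramble library 3, the highest control. For the core it read 189 CPM for Psma6, 259 for Psma7, 237 for Psmb1, 169 for Psmb2, 209 for Psmb3, 293 for Psmb4, 246 for Psmb6 and 171 for Psmb7. Among 19S genes it read 220.2 CPM for Psmc1, 225 for Psmc3, 144 for Psmc4, 181 for Psmc5, 226 for Psmd4, 167 for Psmd7 and 156 for Psmd13. It also read 154 CPM for Psme2, 13.9 for Psmb9, 171 for Pomp and 42.2 for Psmg2. The same library carried 11.5% ribosomal protein counts, against at most 7.32% in the other controls, and whether that has a part in these values was not tested.

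In the treated groups 4 values stood apart, about as many as the chance rate stated above would give. They are listed as a description only. Psmb5 was lowest in oAb library 3 at 159.6 CPM, against 174 to 175 in the others. Psmd4 was highest in fAb library 3 at 169 CPM, against 157 to 158. Psme1 was lowest in fAb library 2 at 159 CPM, against 183 to 185. Psmg2 was highest in fAb library 4 at 23.7 CPM, against 20.3 to 20.7.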

How the results depend on the processing

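No member fell past the threshold under any setting run for oAb or fAb against scramble. Requiring a 1.5-fold minimum left 3 rises in oAb and 5 in fAb, where 12% and 12.9% of all genes rose. Leaving out each library gave 19 to 35 rises in oAb and 20 to 35 in fAb, with 35 in each only without scramble library 3. Over all genes, 2456 to 3503 of 11089 to 11191 tested then rose in oAb, and 2663 to 3819 of 11144 to 11234 in fAb. Within the Timm23 set 11 genes rose in oAb, where 17.6% of all genes did. Within the Gm10273 set, whose lone control is scramble 1, the members' median log2 difference was 0.71 in oAb and 0.64 in fAb. No fAb library lies in the Timm23 set, so fAb had no value there. Other tools, filters, scalings and thresholds gave 16 to 25, where 2127 to 3282 of 10186 to 16792 tested genes rose. Upper quartile scaling and no scramble library 3 gave 29 and 30, where 23.9% and 25.2% of all genes rose.

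Replicate numbers are shared by the groups without a stated meaning. Same-numbered deviations correlated by -0.25 to 0.08 in oAb and 0.09 to 0.20 in fAb against scramble, and by -0.23 to 0.24 between fAb and oAb. Differently numbered ones ran from -0.44 to 0.46 in oAb and -0.34 to 0.43 in fAb against scramble. So few pairs cannot decide whether same-numbered libraries share a batch. A replicate block gave 23 rises in oAb and 23 in fAb, where 2524 of 11033 and 3139 of 11074 tested genes rose. Between fAb and oAb it gave 0 differences, also over all 10878 genes tested.

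Values that changed sign were all of genes not past the threshold with all libraries, and the cause was not tested. Under upper quartile scaling the oAb difference was -0.050 for Psma1, -0.16 for Psmb1, -0.13 for Psmb3, -0.074 for Psmc3, -0.036 for Psmd4 and -0.057 for Psmd13. The fAb difference was then -0.024 for Psma7, -0.042 for Psmb4, -0.022 for Psmb5, -0.12 for Psmc3, -0.12 for Psmd4 and -0.022 for Psmd13. Within the Timm23 set the oAb difference was -0.11 for Psmb1, -0.093 for Psmb3 and -0.031 for Psmd13. For Psmb1 the fAb difference was 0.00053 with limma voom, 0.00063 with the replicate block, 0.23 with the set as a term, 0.24 within the Gm10273 set and 0.0052 with upper quartile scaling and no scramble library 3. For Psmb3 these were 0.052, 0.049, 0.32, 0.33 and 0.086, and 0.0090 with DESeq2's size factors and 0.0087 with its test. Leaving out a library gave -0.060 to 0.24 (oAb) and -0.13 to 0.19 (fAb) for Psmb1, -0.045 to 0.31 and -0.11 to 0.27 for Psmb3, and in fAb -0.021 to 0.27 for Psmc3 and -0.038 to 0.30 for Psmd4.

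One limit is the control group: under the main scaling, 1 of its 4 libraries decides whether 12 of the 35 genes pass in oAb and 13 in fAb. The scaling matters too. With upper quartile scaling and no scramble library 3, Psma1, Psmb1, Psmb3, Psmc3, Psmd13 and Psmd2 did not pass in oAb. Psmb1 and Psmb3 were among those that did not pass in fAb. Counts of Psma5, Psmb5 and Psme2 may be shared with near copies. Adding the counts of 4 overlapping genes or copies (Gm4950, Mir686, Gm21972 and Psme2b) left 23 and 22 rises, where 2777 of 11032 and 3051 of 11073 tested genes rose. The copies of Psma5 and the main copy of Psmb5, Gm3375, were not added.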
